A study of Mus musculus with 64 samples.

Results

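Ppara, Ppard, Ppargc1a, Ppargc1b, Esrra, Esrrb, Esrrg, Rxra, Rxrg and Tfam encode regulators of mitochondrial and lipid metabolism, and their RNA was followed in mouse hearts under pressure overload and complex I deficiency. The members were chosen by gene symbol, which found 10 of the 30285 genes in the expression table. RNA was sequenced in 64 hearts of adult male C57BL6 mice that were 3 to 4 months old at surgery, with 1 library per heart. Knockout (KO) mice lacked Ndufs4, a structural subunit of mitochondrial complex I, in cardiac muscle cells, through Cre recombinase driven by the αMHC promoter on loxP-flanked alleles. Transverse aortic constriction (TAC) narrows the aorta and loads the left ventricle, and sham surgery opened the chest without the constriction. The 4 conditions were KO hearts after TAC (KOTAC), wild type hearts after TAC (WTTAC), KO hearts after sham surgery (KOSH) and wild type hearts after sham surgery (WTSH). Each had 4 hearts at each of weeks 1, 2, 4 and 8, thus 16 hearts per condition. Whether the wild type mice carried the Cre transgene or the loxP alleles was not given in the labels.

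These regulators form a chain of DNA-binding receptors and the coactivators that they recruit. PPARα and PPARδ (Ppara, Ppard) are nuclear receptors activated by fatty acids that bind DNA as dimers with a retinoid X receptor (Rxra, Rxrg) and switch on genes of fatty acid use, the main fuel of the adult heart. PGC-1α and PGC-1β (Ppargc1a, Ppargc1b) are coactivators of these receptors and of the estrogen-related receptors (Esrra, Esrrb, Esrrg), orphan receptors that drive genes of the TCA cycle and the respiratory chain. TFAM packages mitochondrial DNA and starts its transcription in the mitochondrion.

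The promoters of 9 members were read from RefSeq (build GRCm38.p6), in windows that ran from 250 bases before to 50 bases after each annotated start. Each window was searched on both strands for 4 motifs. These were the estrogen-related receptor element TNAAGGTCA, its core AAGGTCA, the nuclear respiratory factor 1 motif (GCGC and TGCGC with any 1 base between) and the GABPA motif CCGGAAG. The core lies within the longer element, so a window with the element also counts for the core. Ppargc1b was not included. Of the members' 15 windows, the 4 that held a motif are shown, so that the letters behind the counts can be read. The 250 bases before the start are printed, with the motif in capitals.
Ppara (chr15:85735526-85735775, plus strand): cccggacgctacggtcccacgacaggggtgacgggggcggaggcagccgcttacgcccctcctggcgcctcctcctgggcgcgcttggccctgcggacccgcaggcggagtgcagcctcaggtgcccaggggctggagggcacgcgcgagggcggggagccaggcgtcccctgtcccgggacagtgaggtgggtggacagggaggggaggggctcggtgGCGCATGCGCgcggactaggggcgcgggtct
Rxra, the second start (chr2:27709042-27709291, plus strand): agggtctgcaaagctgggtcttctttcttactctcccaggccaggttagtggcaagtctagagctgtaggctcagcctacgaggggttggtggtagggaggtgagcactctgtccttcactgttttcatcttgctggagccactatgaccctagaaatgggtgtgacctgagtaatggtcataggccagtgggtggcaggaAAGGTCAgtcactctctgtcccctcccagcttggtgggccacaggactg
Rxrg, the second start (chr1:167618015-167618264, plus strand): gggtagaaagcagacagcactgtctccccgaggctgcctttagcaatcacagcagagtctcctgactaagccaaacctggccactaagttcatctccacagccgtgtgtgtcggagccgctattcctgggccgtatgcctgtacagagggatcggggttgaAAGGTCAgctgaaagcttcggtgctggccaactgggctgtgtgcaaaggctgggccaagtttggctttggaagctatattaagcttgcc
Tfam (chr10:71238045-71238294, minus strand): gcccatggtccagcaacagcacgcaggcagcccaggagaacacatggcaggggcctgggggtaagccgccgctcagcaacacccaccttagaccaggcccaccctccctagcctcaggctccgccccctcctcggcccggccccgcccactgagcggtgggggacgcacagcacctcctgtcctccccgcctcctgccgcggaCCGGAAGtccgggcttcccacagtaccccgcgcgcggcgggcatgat
The Ppara promoter held the nuclear respiratory factor 1 motif, with its first base 31 bases before the start. The downstream starts of Rxra and Rxrg held the AAGGTCA core, at 49 and 89 bases before the start. The Tfam promoter held the GABPA motif 47 bases before the start. Of 32851 windows of the same length, 4.72% held AAGGTCA, 4.6% the nuclear respiratory factor 1 motif, 8.86% CCGGAAG and 1.28% TNAAGGTCA. No window of Ppard, Ppargc1a, Esrra, Esrrb or Esrrg held any of these letters, which says nothing of sites elsewhere.

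The values are FPKM, fragments per kilobase of transcript and scaled to the number of mapped fragments, and are therefore per length and comparable between genes. Tests used limma on log2(FPKM + 1) over 13653 genes, with p-values adjusted by Benjamini-Hochberg over all of them and a threshold of 0.05. A fold change on this scale understates the change of low genes. Ndufs4, the deleted gene, ran between 20.3 and 43.8 FPKM in the KO hearts, against 59.0 to 188 FPKM in the wild type hearts, with no overlap. The number of genes at 1 FPKM or more ranged between 11689 and 13101 per library. The 10 cardiac muscle markers summed to between 31940 and 55958 FPKM per heart, while the 3 lung markers together stayed at or under 0.56 FPKM. The 3 atrial markers were uneven. Their sum reached 767 FPKM in KOSH, 460 in WTSH, 214 in WTTAC and 39.1 in KOTAC hearts, against medians of 2.73, 2.23, 3.82 and 3.43 FPKM. The skeletal muscle markers (4 genes) reached 32.8 FPKM in KOSH hearts, against a median of 2.05 FPKM, and at most 5.77 FPKM in the other conditions. The summed fibroblast markers (8 genes) had medians of 1019 FPKM in KOTAC and 851 FPKM in WTTAC hearts, against 310 FPKM in KOSH and 297 FPKM in WTSH hearts. The macrophage markers (8 genes) had medians of 228 FPKM in KOTAC and 213 FPKM in WTTAC hearts, against 122 FPKM in KOSH and 125 FPKM in WTSH hearts. The medians of the cardiac muscle sum were 37215 FPKM in KOTAC and 40440 FPKM in WTTAC hearts, against 41688 FPKM in KOSH and 43490 FPKM in WTSH hearts. In whole heart RNA, fewer cells of a type and less RNA per cell cannot be told apart, and the part of these markers in the results was not tested. In 4 libraries of week 2 (hearts 3 and 4 of KOTAC and of WTTAC) long transcripts read low. Their slope of log2 level per doubling of transcript length was between -0.22 and -0.17, against -0.077 to 0.062 in the other 60 libraries. Results that rest on these 4 libraries are given with and without them.

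All 10 members passed the filter of 1 FPKM in at least 4 libraries, and each was above 0 in every heart. In WTSH hearts, the baseline, Esrra was the most abundant at 61.8 ± 5.48 FPKM (SD, n = 16), above Rxrg in each of the 16 hearts. Rxrg, the retinoid X receptor of striated muscle, averaged 38.9 ± 5.07 FPKM and Tfam 30.8 ± 3.86 FPKM. Ppargc1a averaged 23.6 ± 3.41 FPKM. A lower tier held Rxra at 13.0 ± 1.26, Ppara at 11.6 ± 2.53 and Esrrg at 11.3 ± 1.21 FPKM. Ppard averaged 8.86 ± 1.05 FPKM and Esrrb 7.94 ± 0.91 FPKM. Ppargc1b was the lowest at 4.61 ± 0.83 FPKM. The ranges over the 16 hearts did not overlap between Esrra and Rxrg, Ppargc1a and Rxra, or Esrrb and Ppargc1b, and overlapped between all other neighbours in this order. Within a family the levels were uneven, with Esrra well above Esrrg and Esrrb, and Ppargc1a above Ppargc1b.

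**Figure D1:**
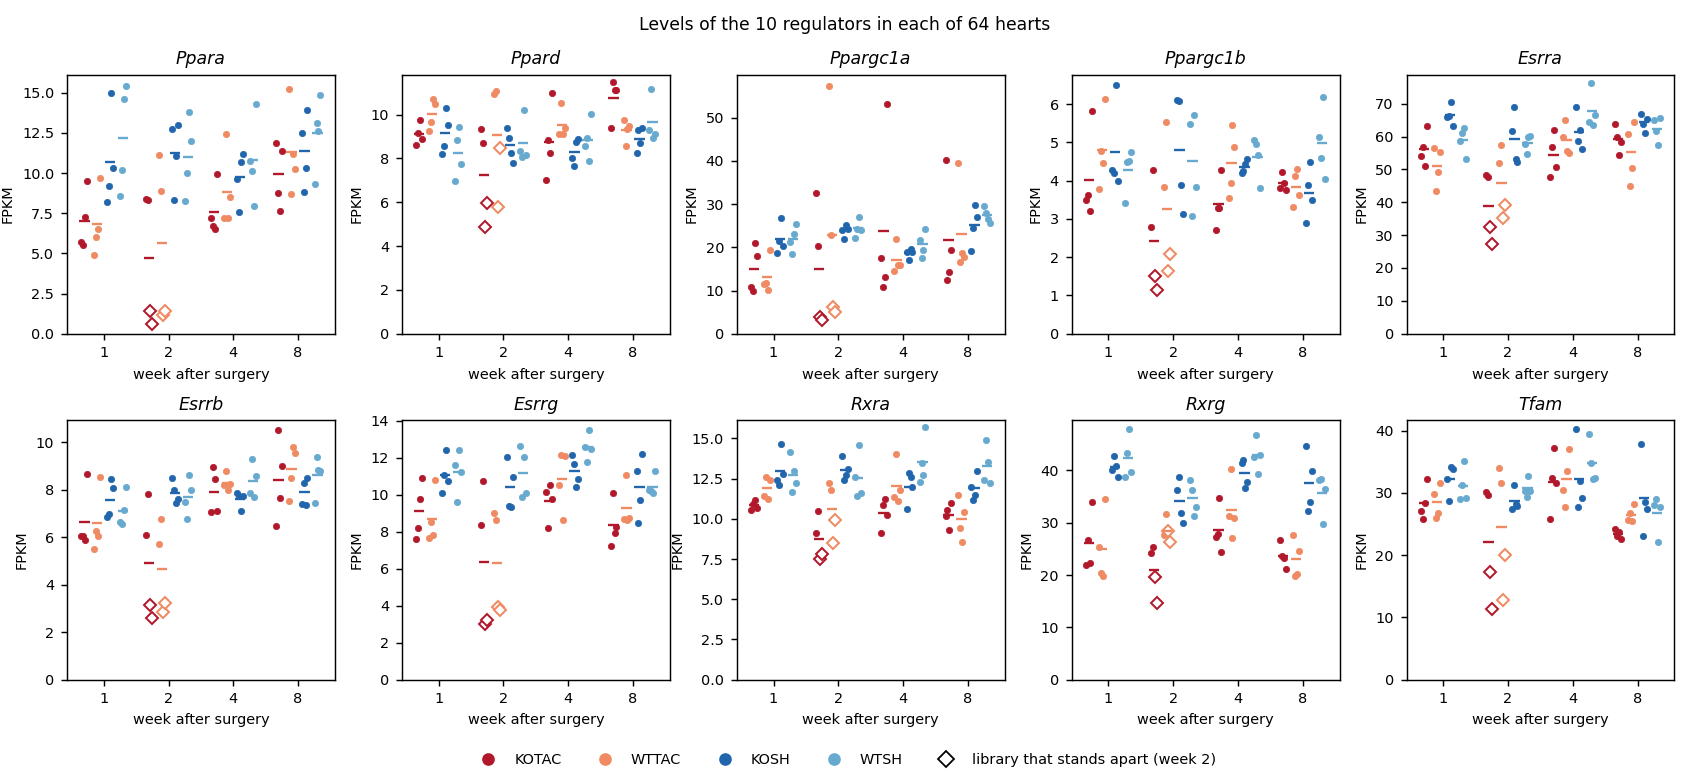
FPKM (y axis, from 0) of each member in each of 64 hearts by week after surgery (x axis); points are hearts, bars are group means of 4 hearts, and open diamonds are the 4 week 2 libraries with low readings of long transcripts. Rxrg lies lower after TAC at each week in both genotypes, and the open diamonds are the 4 lowest points of every member but Ppard, Rxra and Rxrg.

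The first question was whether pressure overload changed these regulators. In KOTAC vs. KOSH, which averages the weekly differences, 8 of 10 members were lower and 0 higher. Over all genes tested, 14.0% were lower and 48.0% higher. In WTTAC vs. WTSH, 6 of 10 members were lower and 0 higher, where 11.7% of all genes were lower and 48.2% higher. The median log2 fold change over the 10 members was -0.30 in KOTAC vs. KOSH and -0.23 in WTTAC vs. WTSH, beside 0.13 and 0.14 over all genes. With median-of-ratios scaling, which centres the median gene near 0, 10 members were lower in KO, where 29.6% of all genes were lower and 29.8% higher. In wild type hearts 9 were then lower, all but Ppard, where 27.7% of all genes were lower and 28.5% higher. Without the 4 libraries, 5 members (Ppara, Esrra, Esrrg, Rxra and Rxrg) were lower in each genotype, and Ppard was higher in WTTAC. The median over all genes was then 0.15 in KO and 0.14 in wild type hearts. The comparisons within KO and within wild type hearts share no hearts.

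**Figure D2:**
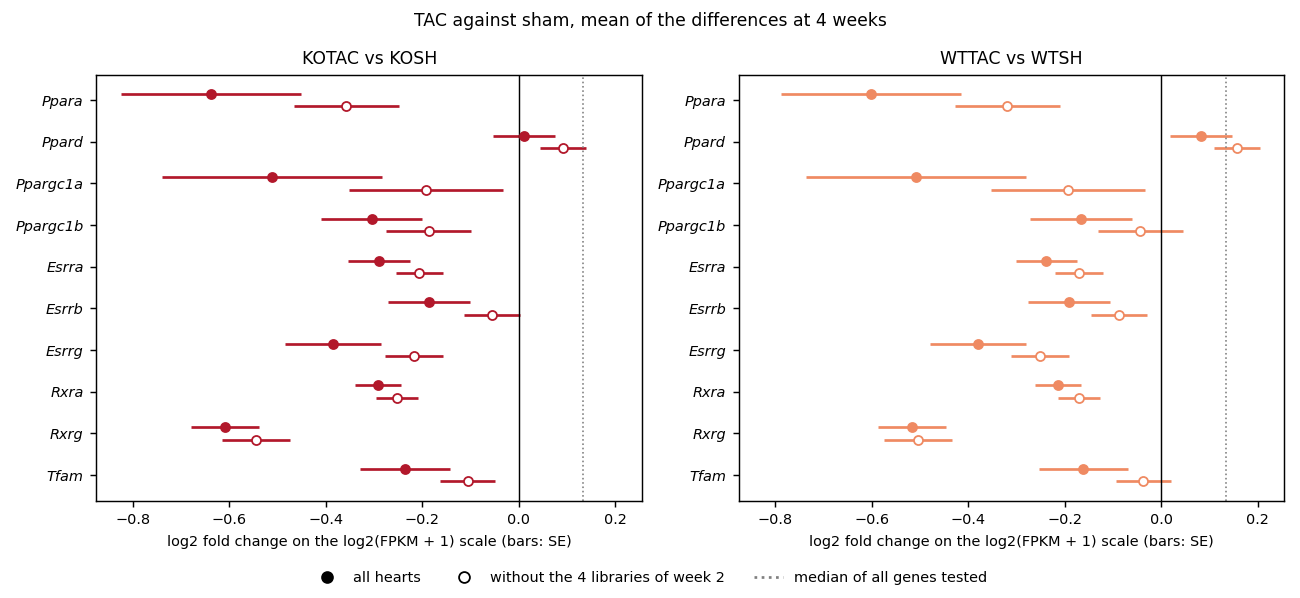
Log2 fold change on the log2(FPKM + 1) scale (x axis) of each member (y axis) in KOTAC vs. KOSH (left) and WTTAC vs. WTSH (right); filled points use all hearts, open points leave out the 4 week 2 libraries, bars are standard errors and the dotted line is the median of all genes tested. Rxra and Rxrg move least when the libraries are left out (Rxrg is at -0.61 with and -0.54 without them in KO, and at -0.52 and -0.50 in wild type), and Ppara and Ppargc1a move most.

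Among the receptors for fatty acids, Ppara (chr15:85565413-85633249 in mm9, plus strand) was lower after TAC in both genotypes. Its level in KOTAC hearts ran between 0.63 and 11.9 FPKM with a median of 7.44, against 7.59 to 15.01 FPKM and a median of 10.5 in KOSH hearts. Ppara ran in WTTAC hearts between 1.19 and 15.2 FPKM with a median of 8.59, against 7.96 to 15.4 FPKM and a median of 11.4 in WTSH hearts. The groups overlapped, and 8 of 16 KOTAC and 7 of 16 WTTAC hearts lay under every sham heart of their genotype. Ppara had a log2 fold change of -0.64 (SE 0.19, limma adjusted p = 0.00271) in KOTAC vs. KOSH and -0.60 (SE 0.19, adjusted p = 0.00482) in WTTAC vs. WTSH. The 4 libraries held the 4 lowest Ppara levels, and without them the decrease was smaller, -0.36 (adjusted p = 0.00377) in KO and -0.32 (adjusted p = 0.01001) in wild type hearts.

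Ppard (chr17:28369699-28438414 in mm9, plus strand), the ubiquitous receptor of the pair, did not follow Ppara. It ran between 4.88 and 11.5 FPKM with a median of 9.04 in KOTAC hearts, against 7.64 to 10.3 FPKM and a median of 8.73 in KOSH hearts. Ppard ran in WTTAC hearts between 5.79 and 11.1 FPKM with a median of 9.42, against 6.96 to 11.2 FPKM and a median of 8.90 in WTSH hearts. The groups overlapped, with 3 KOTAC hearts under and 4 above every KOSH heart, and 1 WTTAC heart under and 0 above every WTSH heart. Ppard had a log2 fold change of 0.01 (95% interval -0.12 to 0.14, adjusted p = 0.897) in KOTAC vs. KOSH and 0.08 (interval -0.05 to 0.21, adjusted p = 0.263) in WTTAC vs. WTSH. Ppard without the 4 libraries stood at 0.16 in WTTAC vs. WTSH (SE 0.047, adjusted p = 0.00394), and 0.09 in KOTAC vs. KOSH (adjusted p = 0.0852). The direction of Ppard depends on the scaling, and the median gene was higher after TAC by 0.13 to 0.14. With median-of-ratios scaling it was -0.14 (adjusted p = 0.0326) in KOTAC vs. KOSH and -0.07 (adjusted p = 0.322) in WTTAC vs. WTSH. With quantile normalization it was -0.15 (adjusted p = 0.0157) in KOTAC vs. KOSH and -0.07 (adjusted p = 0.267) in WTTAC vs. WTSH. At week 8, the 4 KOTAC hearts had 9.38, 11.5, 11.1 and 11.1 FPKM of Ppard, against 8.26, 9.28, 8.73 and 9.38 FPKM in KOSH hearts. The KOTAC hearts were all at or above the highest KOSH heart, with a log2 fold change of 0.25 that passed the threshold without the 4 libraries (adjusted p = 0.0199).

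Ppargc1a (chr5:51845488-51958964 in mm9, minus strand), the coactivator induced by fasting, cold and exercise, became the most variable member after TAC. It ran between 3.22 and 53.3 FPKM with a median of 15.9 in KOTAC hearts, against 17.1 to 29.8 FPKM and a median of 21.8 in KOSH hearts. Ppargc1a ran in WTTAC hearts between 4.94 and 57.3 FPKM with a median of 16.3, against 17.6 to 29.5 FPKM and a median of 24.1 in WTSH hearts. The TAC hearts thus spread to both sides of the sham range. In KO, 8 of 16 TAC hearts lay under and 3 above every sham heart, and in wild type 9 lay under and 2 above. Its SD was 13.2 FPKM in KOTAC and 12.9 FPKM in WTTAC hearts, against 3.67 FPKM in KOSH and 3.41 FPKM in WTSH hearts. Ppargc1a had a log2 fold change of -0.51 in each genotype (SE 0.23), with an adjusted p of 0.0477 in KOTAC vs. KOSH and 0.0506 in WTTAC vs. WTSH. Ppargc1a without the 4 libraries stood at -0.19 in each (adjusted p = 0.289 in KO and 0.291 in wild type). Both values lay close to the threshold. The KO call was lost without any of 24 of the 32 hearts compared (adjusted p between 0.0509 and 0.115), and the wild type value passed without any of 7 hearts (adjusted p between 0.00477 and 0.0495). In wild type it also passed without week 2 (-0.44, adjusted p = 0.0316) and with median-of-ratios scaling (-0.67, adjusted p = 0.0116).

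Ppargc1b, its lower-expressed relative, had values between 1.14 and 5.81 FPKM with a median of 3.55 in KOTAC hearts, against 2.89 to 6.50 FPKM and a median of 4.23 in KOSH hearts. Ppargc1b ran in WTTAC hearts between 1.63 and 6.14 FPKM with a median of 4.03, against 3.08 to 6.18 FPKM and a median of 4.64 in WTSH hearts. The groups overlapped in each genotype. Ppargc1b had a log2 fold change of -0.31 (SE 0.10, adjusted p = 0.0102) in KOTAC vs. KOSH and -0.17 (interval -0.38 to 0.04, adjusted p = 0.168) in WTTAC vs. WTSH. Neither value passed without the 4 libraries, at -0.19 (adjusted p = 0.0571) in KO and -0.04 (adjusted p = 0.684) in wild type hearts.

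Of the estrogen-related receptors, Esrra and Esrrg were lower after TAC in both genotypes. Esrra (chr19:6985467-6996303 in mm9, minus strand), the main receptor partner of PGC-1α on respiratory chain genes, ran between 27.3 and 63.8 FPKM with a median of 54.1 in KOTAC hearts, against 52.3 to 70.5 FPKM and a median of 63.6 in KOSH hearts. Esrra ran in WTTAC hearts between 35.3 and 65.0 FPKM with a median of 55.1, against 53.2 to 76.4 FPKM and a median of 61.4 in WTSH hearts. Of 16 TAC hearts, 15 in KO and 14 in wild type lay under the sham median. Esrra had a log2 fold change of -0.29 (SE 0.063, adjusted p = 9.62e-05) in KOTAC vs. KOSH and -0.24 (SE 0.063, adjusted p = 0.00117) in WTTAC vs. WTSH. Esrra without the 4 libraries stood at -0.21 (adjusted p = 0.000315) in KO and -0.17 (adjusted p = 0.00265) in wild type hearts.

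Esrrg (chr1:189432670-190038764 in mm9, plus strand), which drives oxidative metabolism in the postnatal heart, ran between 2.98 and 10.9 FPKM with a median of 8.30 in KOTAC hearts, against 8.47 to 12.4 FPKM and a median of 10.9 in KOSH hearts. Esrrg ran in WTTAC hearts between 3.77 and 12.1 FPKM with a median of 8.66, against 9.61 to 13.5 FPKM and a median of 11.4 in WTSH hearts. Each of the 16 KOTAC hearts lay under the KOSH median, and 11 of 16 WTTAC hearts lay under every WTSH heart. Esrrg had a log2 fold change of -0.39 (SE 0.10, adjusted p = 0.00081) in KOTAC vs. KOSH and -0.38 (SE 0.10, adjusted p = 0.00103) in WTTAC vs. WTSH. Esrrg without the 4 libraries stood at -0.22 (adjusted p = 0.00159) in KO and -0.25 (adjusted p = 0.000344) in wild type hearts.

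Esrrb (chr12:87702067-87862578 in mm9, plus strand), best known from pluripotent cells, ran between 2.58 and 10.5 FPKM with a median of 7.09 in KOTAC hearts, against 6.82 to 8.49 FPKM and a median of 7.72 in KOSH hearts. Esrrb ran in WTTAC hearts between 2.86 and 9.81 FPKM with a median of 7.77, against 6.57 to 9.37 FPKM and a median of 7.91 in WTSH hearts. Like Ppargc1a it spread to both sides, with 4 KOTAC and 2 WTTAC hearts above every sham heart of their genotype. Esrrb had a log2 fold change of -0.19 in each comparison, with an adjusted p of 0.0527 in KOTAC vs. KOSH and 0.0478 in WTTAC vs. WTSH. It was -0.06 (adjusted p = 0.402) in KO and -0.09 (adjusted p = 0.187) in wild type hearts without the 4 libraries. The wild type call was lost without any of 20 of the 32 hearts compared (adjusted p between 0.0522 and 0.109).

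The retinoid X receptors, the dimer partners of the PPARs, gave the decreases with the smallest adjusted p among the members. Rxrg (chr1:169528515-169569754 in mm9, plus strand) ran between 14.7 and 34.8 FPKM with a median of 24.3 in KOTAC hearts, against 30.0 to 44.7 FPKM and a median of 38.8 in KOSH hearts. Rxrg ran in WTTAC hearts between 19.7 and 40.3 FPKM with a median of 27.4, against 29.7 to 47.9 FPKM and a median of 38.6 in WTSH hearts. In KO, 14 of 16 TAC hearts lay under every sham heart, and in wild type 11 of 16. Rxrg had a log2 fold change of -0.61 (SE 0.071, adjusted p = 3e-10) in KOTAC vs. KOSH and -0.52 (SE 0.071, adjusted p = 2.4e-08) in WTTAC vs. WTSH. Rxrg without the 4 libraries stood at -0.54 (adjusted p = 6.27e-09) in KO and -0.50 (adjusted p = 4.95e-08) in wild type hearts.

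Rxra (chr2:27531960-27618477 in mm9, plus strand), the main cardiac partner of PPARα, ran between 7.51 and 11.2 FPKM with a median of 10.5 in KOTAC hearts, against 10.6 to 14.7 FPKM and a median of 12.5 in KOSH hearts. Rxra ran in WTTAC hearts between 8.49 and 14.0 FPKM with a median of 11.4, against 11.4 to 15.7 FPKM and a median of 12.7 in WTSH hearts. Each of the 16 KOTAC hearts lay under the KOSH median, and 15 of 16 WTTAC hearts under the WTSH median. Rxra had a log2 fold change of -0.29 (SE 0.048, adjusted p = 6.34e-07) in KOTAC vs. KOSH and -0.21 (SE 0.048, adjusted p = 0.000125) in WTTAC vs. WTSH. Rxra without the 4 libraries stood at -0.25 (adjusted p = 2.66e-06) in KO and -0.17 (adjusted p = 0.000808) in wild type hearts.

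Tfam (chr10:70688212-70701028 in mm9, minus strand) ran between 11.4 and 37.1 FPKM with a median of 26.4 in KOTAC hearts, against 23.1 to 40.2 FPKM and a median of 28.9 in KOSH hearts. Tfam ran in WTTAC hearts between 12.7 and 37.1 FPKM with a median of 28.0, against 22.1 to 39.5 FPKM and a median of 30.3 in WTSH hearts. The groups overlapped widely. Tfam had a log2 fold change of -0.24 (SE 0.093, adjusted p = 0.0241) in KOTAC vs. KOSH and -0.16 (interval -0.35 to 0.02, adjusted p = 0.128) in WTTAC vs. WTSH. Tfam without the 4 libraries stood at -0.11 (adjusted p = 0.0950) in KO and -0.04 (adjusted p = 0.580) in wild type hearts. The KO call was also lost without heart 4 of KOTAC at week 2 (-0.17, adjusted p = 0.0719) or heart 1 of KOSH at week 8 (-0.20, adjusted p = 0.0521).

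The time course asked when the differences arose. At week 1, 2 of 10 members were lower in KOTAC vs. KOSH (5.01% of all genes lower) and 1 in WTTAC vs. WTSH (4.83% lower). At week 2, 9 were lower in KO (17.9% lower) and 5 in wild type (10.5% lower). At week 4 there was 1 in KO (2.13% lower) and 0 in wild type (0.168% lower), where 1 member had an unadjusted p under 0.05. At week 8 there was 1 in KO (5.54% lower) and 2 in wild type (6.12% lower). No member was higher at any week, where the share of all genes higher was 31.9%, 24.6%, 8.27% and 34.6% in KO and 51.2%, 35.8%, 0.0439% and 10.3% in wild type hearts at weeks 1, 2, 4 and 8.

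Rxrg was the member lower in the most weeks, called at each week in KO and at weeks 1 and 8 in wild type hearts. The week 2 difference was not called in wild type, where 3 of 4 WTTAC hearts lay under every WTSH heart and the groups overlapped. At week 1 it had 21.9, 26.7, 22.3 and 34.0 FPKM in KOTAC hearts, against 40.1, 42.7, 40.8 and 38.8 FPKM in KOSH hearts. In wild type hearts at week 1 it had 25.3, 20.4, 19.7 and 34.5 FPKM after TAC, against 38.8, 43.3, 47.9 and 39.8 FPKM after sham surgery. The groups did not overlap in either genotype, with log2 fold changes of -0.63 (adjusted p = 0.000441) in KO and -0.77 (adjusted p = 9.84e-06) in wild type. At week 4 the KOTAC hearts had 27.4, 27.9, 34.8 and 24.3 FPKM, against 41.4, 42.0, 36.6 and 37.8 FPKM in KOSH hearts (-0.46, adjusted p = 0.0295). The WTTAC hearts then had 31.2, 40.3, 27.1 and 31.0 FPKM, against 42.5, 46.8, 39.3 and 42.9 FPKM in WTSH hearts (-0.41, not called). The week 4 groups did not overlap in KO and overlapped through 1 WTTAC heart in wild type, and the KO call was lost without any of 6 of its 8 hearts (adjusted p between 0.0502 and 0.127). At week 8 the KOTAC hearts had 26.7, 23.6, 23.3 and 21.2 FPKM, against 44.7, 32.2, 33.9 and 39.9 FPKM in KOSH hearts (-0.64, adjusted p = 0.000362). The WTTAC hearts had 27.6, 19.8, 20.2 and 24.5 FPKM, against 38.2, 38.4, 29.7 and 36.5 FPKM in WTSH hearts (-0.62, adjusted p = 0.00172). The groups were separate again in both genotypes.

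Week 2 carried most of the weekly calls, and these rested on the 4 libraries. Ppara had 8.40 and 8.31 FPKM in hearts 1 and 2 of KOTAC and 1.40 and 0.63 FPKM in hearts 3 and 4, against 12.7, 8.32, 11.1 and 13.0 FPKM in KOSH hearts. In WTTAC it had 11.1 and 8.86 FPKM in hearts 1 and 2 and 1.19 and 1.38 FPKM in hearts 3 and 4, against 8.29, 10.01, 13.8 and 12.0 FPKM in WTSH hearts. The low values belonged to hearts 3 and 4, and hearts 1 and 2 lay within or close to the sham range. Tfam behaved likewise, with 30.2, 29.6, 17.2 and 11.4 FPKM in KOTAC hearts 1 to 4, against 27.3, 31.3, 28.3 and 28.0 FPKM in KOSH hearts. With all hearts the week 2 log2 fold change of Ppara was -1.49 (adjusted p = 0.00123) in KO and -1.24 (adjusted p = 0.00567) in wild type. Leaving out the 4 libraries gave -0.37 (adjusted p = 0.308) in KO and -0.11 (adjusted p = 0.772) in wild type. At week 2 without them, Rxra (-0.38, adjusted p = 0.00577) and Rxrg (-0.44, adjusted p = 0.0465) were lower in KO, no member was lower in wild type, and Ppard was higher in wild type (0.32, adjusted p = 0.0306). These fits have 2 TAC hearts per genotype at week 2, hearts 1 and 2, which are set against all 4 sham hearts. Sham hearts 3 and 4 were not always like hearts 1 and 2. Their Rxrg was 31.9 and 30.0 against 36.3 and 38.7 FPKM in KOSH, and 31.2 and 33.1 against 38.1 and 36.2 FPKM in WTSH. Ppara in WTSH went the other way, with 13.8 and 12.0 against 8.29 and 10.01 FPKM. Hearts 1 and 2 alone of TAC and sham were not compared.

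Without the 4 libraries the standard errors shrank (0.11 against 0.19 for Ppara), and calls were gained at other weeks. At week 1, Ppara was then lower in both genotypes (-0.54, adjusted p = 0.0277 in KO and -0.76, adjusted p = 0.00140 in wild type), as was Esrra (-0.24, adjusted p = 0.0310 and -0.21, adjusted p = 0.0472). At week 1 in wild type hearts, Ppargc1a (-0.73, adjusted p = 0.0315) and Esrrg (-0.34, adjusted p = 0.00877) were also lower, and Ppard was higher (0.26, adjusted p = 0.0107). At week 8 in KO hearts, Esrrg (-0.28, adjusted p = 0.0353), Rxra (-0.20, adjusted p = 0.0431) and Tfam (-0.29, adjusted p = 0.0243) were lower. The 4 KOTAC hearts at week 8 had 24.2, 23.1, 23.7 and 22.6 FPKM of Tfam, against 37.9, 23.1, 28.5 and 27.4 FPKM in KOSH hearts, of which 1 was as low as the TAC hearts.

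**Figure D3:**
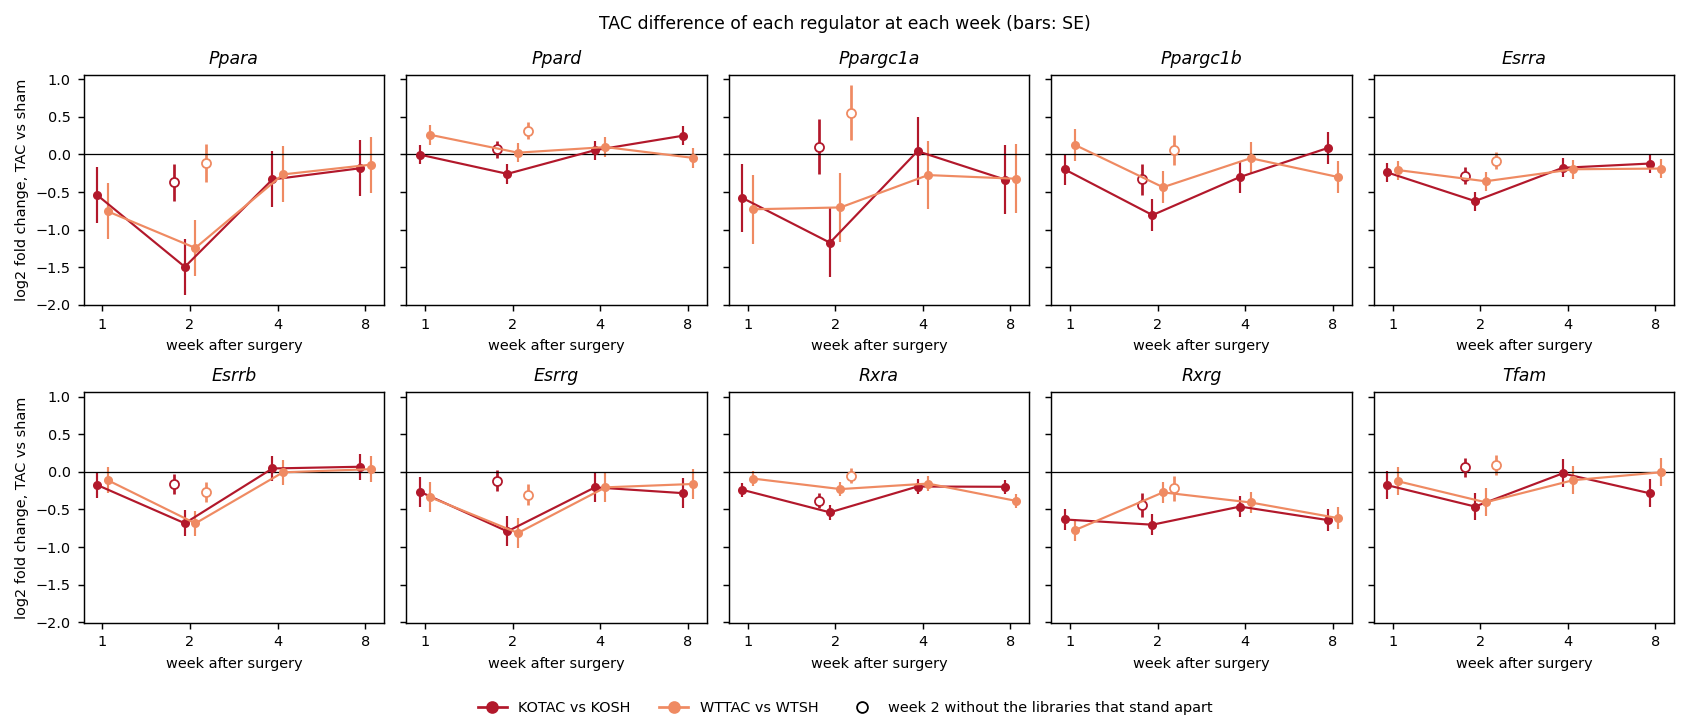
Log2 fold change of TAC against sham on the log2(FPKM + 1) scale (y axis) of each member at weeks 1, 2, 4 and 8 (x axis) in KO (red) and wild type (orange) hearts, with standard errors; open points give week 2 without the 4 libraries. The low point of Ppara at week 2 (-1.49 in KO, -1.24 in wild type) moves to -0.37 and -0.11 in the open points, whereas Rxrg stays below 0 at each week.

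Whether the TAC difference itself moved with time was tested as week 8 minus week 1. No member passed in KO (0.0732% of all genes higher, 0.0806% lower; 0 members with an unadjusted p under 0.05) or in wild type hearts (0.439% higher, 22.9% lower; 1 member with an unadjusted p under 0.05). That member was Rxra in wild type hearts, where the log2 difference was -0.30 (adjusted p = 0.102, and 0.0472 without the 4 libraries). Rxra had 11.5, 9.40, 8.54 and 10.4 FPKM in WTTAC hearts at week 8, against 12.4, 14.9, 13.6 and 12.2 FPKM in WTSH hearts. Those groups were separate (log2 fold change -0.38, adjusted p = 0.00315). Between week 8 and week 1 of the sham hearts no member passed in KOSH (0.0146% of all genes called) or WTSH (0.00732% called), and 0 had an unadjusted p under 0.05 in either.

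Loss of Ndufs4 alone was not accompanied by a detectable change in these regulators. In KOSH vs. WTSH, 0 of 10 members passed and 0 had an unadjusted p under 0.05, where 0.0513% of all genes passed. The widest interval was that of Ppargc1a (log2 fold change -0.08, 95% interval -0.54 to 0.38) and the narrowest that of Rxra (-0.06, interval -0.15 to 0.04). Under TAC, KOTAC vs. WTTAC called 0 members, where 0.820% of all genes passed. Rxra was the member with an unadjusted p under 0.05. It had a median of 10.5 FPKM in KOTAC hearts and 11.4 FPKM in WTTAC hearts, with overlapping ranges and a log2 fold change of -0.13 (SE 0.048, limma adjusted p = 0.166). Ppargc1b had a log2 fold change of -0.20 (interval -0.41 to 0.01, adjusted p = 0.403) and Rxrg -0.12 (interval -0.27 to 0.02, adjusted p = 0.468). The interaction of genotype and TAC, the test of whether the TAC difference depended on genotype, called 0 members and 0 genes (312 genes and 0 members with an unadjusted p under 0.05). The interaction of Rxrg was -0.09 (interval -0.29 to 0.11) and that of Ppara -0.04 (interval -0.57 to 0.49).

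The genes that these regulators control were followed in lists taken from textbook knowledge, chosen with earlier results of these data known. The genes named below were picked, 4 per list, for the strongest TAC differences in these same comparisons, so their fold changes do not stand for the list. Of 30 PPARα target genes of fatty acid use, 25 were lower and 0 higher in KOTAC vs. KOSH (median log2 fold change -0.71). Over all genes, 14.0% were lower and 48.0% higher there, with a median of 0.13. In WTTAC vs. WTSH, 25 were lower and 0 higher (median -0.53). Over all genes, 11.7% were lower and 48.2% higher there, with a median of 0.14. Hadha and Hadhb, the subunits of the mitochondrial trifunctional protein of β-oxidation, changed by -0.79 and -0.68 in KO and by -0.67 and -0.54 in wild type hearts. Acot1, a thioesterase that frees fatty acids from CoA, changed by -1.56 in KO and -1.19 in wild type, and Acaa2, the last thiolase of β-oxidation, by -1.30 and -0.99. In KOTAC vs. WTTAC, 2 of the 30 were lower, where 0.71% of all genes were lower. Without the 4 libraries, 25 of 30 were lower in KO and 24 in wild type hearts, and 0 between KOTAC and WTTAC.

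Of 31 target genes of estrogen-related receptors and PGC-1, mostly of the TCA cycle and respiratory chain, 26 were lower and 0 higher in KOTAC vs. KOSH (median -0.25), and 22 lower and 1 higher in WTTAC vs. WTSH (median -0.21), beside 14.0% of all genes lower in KO and 11.7% in wild type. The 1 that was higher in wild type was Vegfa, an angiogenic factor rather than an enzyme (0.20), named here after its value was seen. Sdha, the catalytic subunit of complex II, changed by -0.63 in KO and -0.55 in wild type hearts, and Ndufs1, a core subunit of complex I, by -0.53 and -0.48. Atp5a1 of ATP synthase changed by -0.35 and -0.30, and Sod2, the mitochondrial superoxide dismutase, by -0.49 and -0.42. With the 4 libraries left out, 30 of 31 were lower in each genotype, with medians of -0.29 in KO and -0.27 in wild type.

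The list around Tfam, for maintenance and transcription of mitochondrial DNA, had calls in both directions. Of 18 genes, 7 were lower and 3 higher in each genotype, with medians of -0.13 in KO and -0.10 in wild type hearts. Over all genes, 14.0% were lower and 48.0% higher in KO, and 11.7% lower and 48.2% higher in wild type. This split depends on the scaling, since median-of-ratios scaling gave 13 lower and 1 higher in KO and 13 lower and 0 higher in wild type. Leaving out the 4 libraries gave 5 lower and 3 higher in KO, and 5 lower and 2 higher in wild type. Peo1, the mitochondrial DNA helicase twinkle, changed by -0.34 in KO and -0.25 in wild type, Top1mt, the mitochondrial topoisomerase, by -0.35 and -0.25, and Mterfd3 by -0.38 and -0.35. Lonp1, the matrix protease that degrades TFAM, changed the other way by 0.29 and 0.17. Of 28 coregulators and related regulators, 11 were higher and 6 lower in KO, and 8 higher and 7 lower in wild type hearts, no larger a share higher than among all genes (48.0% in KO and 48.2% in wild type). Thrb, a thyroid hormone receptor, changed by -0.47 in KO and -0.45 in wild type hearts. Pprc1, a more distant coactivator of the PGC-1 family, changed by 0.39 and 0.32, opposite to Ppargc1b in KO. Gabpb1, a subunit of the GA-binding protein complex, changed by 0.17 and 0.25, and the acetyltransferase Kat2a by 0.23 and 0.26. The higher calls and the directions of the coregulators depend on the scaling. With median-of-ratios scaling 3 coregulators were higher and 17 lower in KO, and 4 higher and 14 lower in wild type, whereas 0 PPARα targets were higher and 29 in KO and 28 in wild type were lower.

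**Figure D4:**
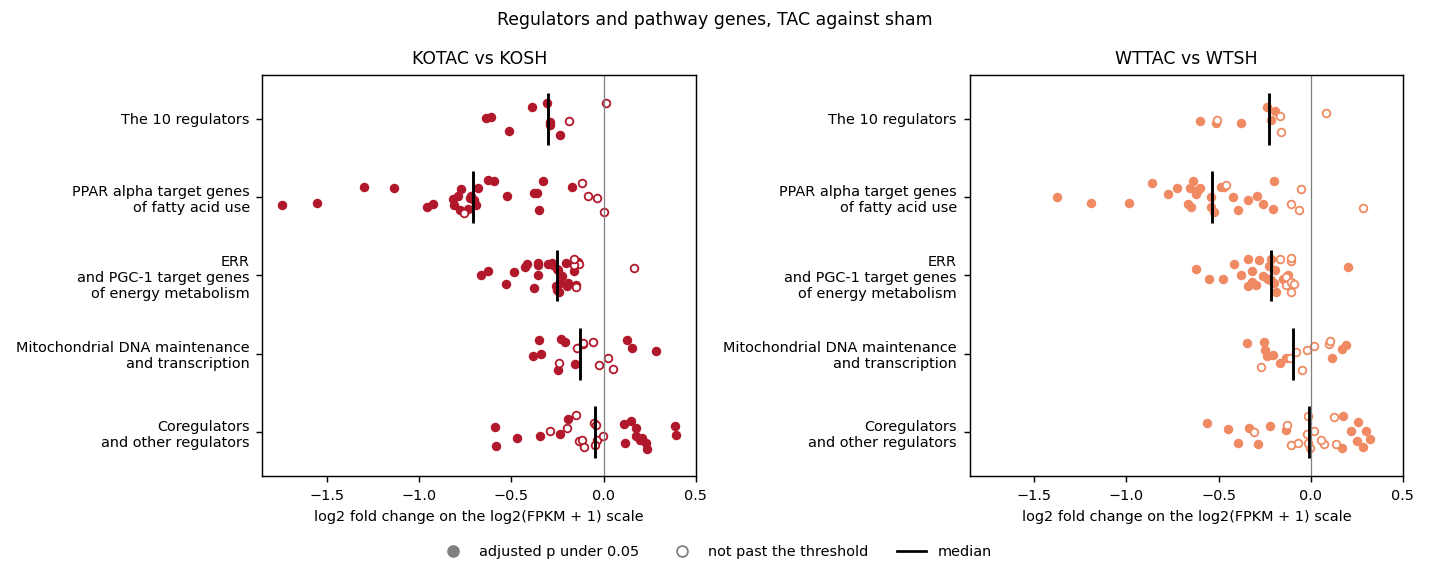
Log2 fold change on the log2(FPKM + 1) scale (x axis) of the 10 regulators and of the genes of 4 lists (y axis) in KOTAC vs. KOSH (left) and WTTAC vs. WTSH (right); points are genes, filled where the adjusted p was under 0.05, and black bars are medians. The list of PPARα targets lies lowest (medians -0.71 and -0.53) and the coregulators straddle 0.

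The genes with the pattern most like a member were found by Pearson's r over the 16 group means of log2(FPKM + 1), which share the 4 libraries. Rxrg was closest to Dcun1d2 (r = 0.98) and Gm16534 (r = 0.97), and Rxra to Clcn3 (r = 0.98) and Gtf2i (r = 0.97). With the 4 libraries left out of the means, these remained the nearest genes of both receptors (r of 0.96 to 0.97). For Ppara, Ppard, Ppargc1a, Esrra, Esrrb, Esrrg and Tfam the nearest genes depended on the 4 libraries. Without them, Ppargc1a was closest to Pdk4 (r = 0.94), the kinase that restrains pyruvate oxidation, and to Lipe (r = 0.87), hormone-sensitive lipase. Tfam was closest to Tefm (r = 0.93), the elongation factor of mitochondrial transcription, and to Asb5 (r = 0.90). Esrra was closest to Mrpl14 (r = 0.92) of the mitochondrial ribosome and Atp5d (r = 0.91) of ATP synthase. Esrrb was closest to Fam65b (r = 0.89) and Idh2 (r = 0.88), and Esrrg to Gm6415 and Kbtbd3 (both r = 0.94). Ppard was closest to Eng (r = 0.90) and Mon1b (r = 0.88). Ppara was closest to Cyth1 and Pim3 (both r = 0.93), and Ppargc1a was its nearest member (r = 0.67). In the same means, Rxrg was the nearest member to Esrra, Esrrg and Rxra (r of 0.78, 0.90 and 0.83).

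Across single hearts, Ppargc1a was set beside Pdk4. The 4 hearts highest in Ppargc1a were heart 1 of WTTAC at week 2 (57.3 FPKM), heart 5 of KOTAC at week 4 (53.3 FPKM), heart 2 of KOTAC at week 8 (40.1 FPKM) and heart 2 of WTTAC at week 8 (39.5 FPKM). Their Pdk4 levels were 168, 159, 325 and 145 FPKM in that order. High Pdk4 was also found at Ppargc1a levels within the sham range. It was 442 FPKM, the most of all 64 hearts, in heart 3 of KOSH at week 2 (Ppargc1a 25.3 FPKM), 221 FPKM in heart 2 of WTTAC at week 2 (22.8 FPKM), 172 FPKM in heart 4 of WTSH at week 2 (24.1 FPKM) and 167 FPKM in heart 3 of KOSH at week 8 (29.8 FPKM). These hearts were singled out after their values were seen.

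**Figure D5:**
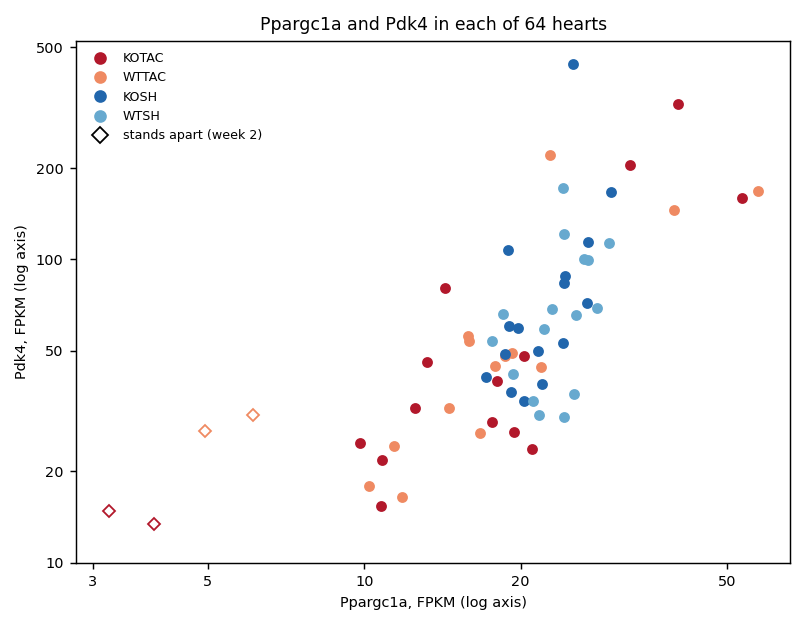
Ppargc1a (x axis) and Pdk4 (y axis), each in FPKM on a log axis, in each of 64 hearts; points are coloured by condition and open diamonds are the 4 week 2 libraries. The 4 hearts with the most Ppargc1a, all after TAC, have between 145 and 325 FPKM of Pdk4, and hearts with 22.8 to 29.8 FPKM of Ppargc1a reach up to 442 FPKM.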

How the data were processed

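RNA of 64 hearts was sequenced in paired reads of 50 bases. The authors used TopHat for alignment to mm9, filtered for uniquely mapped reads with under 2 mismatches, and obtained FPKM from Cufflinks using Ensembl 66 genes. Versions of these tools are not given in the sources used here. FPKM as deposited are normalized to library size and transcript length, so counts and depth are unknown and no count model was used, whereas the study's own test used counts. Here log2(FPKM + 1) of the 13653 genes with 1 FPKM or more in at least 4 libraries entered a linear model with 16 group means (limma 3.58.1 with trend, R 4.3.3). Comparisons between conditions average the 4 weekly differences, and p-values were adjusted by Benjamini-Hochberg over all 13653 genes. Hearts carried 1 library each, and p-values measure the spread between hearts. No pair of libraries was identical, and Pearson's r within a group was at least 0.90. The 4 libraries that stand apart were defined by a slope under -0.1 on transcript length over 7567 genes with a mean of 5 FPKM or more. Leaving them out was chosen after seeing the data, as were leaving out week 2, the follow-up tests of Ppargc1b and the list counts under other settings.

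The members and gene lists were chosen with earlier results of these data known. Named list genes are the 4 with the largest sum of absolute moderated t over both TAC comparisons, and genes near each member are the 2 with the highest r, which are not reported here for Ppargc1b. 2310003H01Rik was dropped from the mitochondrial DNA list because RefSeq gives it as a synonym of another gene. Same-numbered hearts of a week were checked for shared deviations with all weeks pooled, where the median r was 0.0148. The main fit treats hearts as independent. Pairing within single weeks was not tested, and at week 2 hearts 3 and 4 stood apart in both KOTAC and WTTAC. The fit was tested on simulated data. Alternatives were the pseudocount, the filter, the scaling, array weights, the hearts in the fit, the replicate block and each heart left out in turn. Promoter windows and their coordinates are from RefSeq (GRCm38.p6), and gene positions from the mm9 annotation.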

Additional observations from a re-analysis of the deposited data

Results flagged for a closer look

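In 9 of 160 groups of 4 hearts (10 members in 16 groups), 1 heart lay far from the other hearts of its group, where chance gives about 1 in 20. Ppargc1a had 53.3 FPKM in heart 5 of KOTAC at week 4, against 10.8 to 17.6 FPKM in the other 3 hearts, and 39.5 FPKM in heart 2 of WTTAC at week 8, against 16.7 to 18.6 FPKM. Ppargc1b had 5.81 FPKM and Esrrb 8.66 FPKM in heart 6 of KOTAC at week 1, against 3.20 to 3.62 and 5.86 to 6.05 FPKM in the others. Esrrg had 11.1 FPKM in heart 5 of WTTAC at week 8, against 8.63 to 8.73 FPKM. Among sham hearts, Ppargc1b had 6.50 FPKM in heart 3 of KOSH at week 1, Ppard 10.2 FPKM in heart 3 of WTSH at week 2 and 11.2 FPKM in heart 2 of WTSH at week 8, and Esrrg 11.3 FPKM in heart 4 of WTSH at week 8. Each of the 9 was the highest heart of its group.

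For Ppargc1b the TAC difference had opposite directions in groups of the same contrast, as each TAC heart was compared with the mean of its sham group. In KO hearts it was 0.248 FPKM at week 8, where each KOTAC heart lay above the KOSH mean, -2.36 FPKM at week 2 (a gap of 2.61 FPKM) and -0.975 FPKM at week 4 (a gap of 1.22 FPKM). At week 8 the KO difference exceeded the wild type difference by 1.40 FPKM. Tested afterwards with limma, the gap between weeks 8 and 2 in KO was 0.89 on the log2 scale (SE 0.30, adjusted p = 0.0471), and 0.42 (adjusted p = 0.491) without the 4 libraries. The gap between weeks 8 and 4 was 0.38 (adjusted p = 0.719), and that between KO and wild type at week 8 was 0.39 (adjusted p = 0.645).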

How the results depend on the processing

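The filter, the pseudocount and the trend changed few calls (0 to 7 of 130 member results per setting). Array weights changed the call or direction of 31 of 130 member results, and leaving out the 4 week 2 libraries that of 29. Leaving out the 4 libraries gave 5 members lower in KOTAC vs. KOSH instead of 8, 1 higher instead of 0 in WTTAC vs. WTSH, and 1 lower instead of 0 for the week 8 minus week 1 difference in wild type. Over the 40 member-week results of each genotype, it gave 2 higher instead of 0 in wild type and 1 higher instead of 0 in KO. Array weights gave 1 higher in WTTAC vs. WTSH, 1 lower for week 8 minus week 1 in wild type, and 2 higher in wild type and 1 higher in KO among the weekly results. The median gene shifted by 0.13 to 0.14, and median-of-ratios and quantile scaling each gave 10 members lower in KOTAC vs. KOSH instead of 8 and 9 in WTTAC vs. WTSH instead of 6, 18 and 18 weekly results lower in wild type instead of 8, and 20 and 22 in KO instead of 13. Fitting only the hearts compared gave 7 weekly results lower in KO instead of 13, and 1 higher instead of 0. The KO calls at week 2 of Ppara, Ppargc1a, Ppargc1b, Esrra, Esrrb, Esrrg and Tfam were lost in that setting. Reversed values were Ppard in KOTAC vs. KOSH with median-of-ratios scaling (-0.143) and quantile normalization (-0.151), Ppargc1a in KOTAC vs. KOSH at week 2 without the 4 libraries (0.101), and Tfam in KOTAC vs. KOSH at week 2 with array weights (0.00247) and without the 4 libraries (0.0582).

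With the replicate block, 1 weekly result was lower in KOTAC vs. WTTAC instead of 0, and Rxra and Rxrg at week 8 in wild type lost their calls (-0.352, adjusted p = 0.372, and -0.411, adjusted p = 0.343). With all weeks pooled, deviations of hearts with the same number had a median r of 0.0148 (77 pairs, 24 of them over 0.1). Pairs with different numbers had a median r of -0.0048 (307 pairs, 76 of them over 0.1). Single weeks were not checked, and at week 2 hearts 3 and 4 stood apart in both KOTAC and WTTAC. The sham comparison between weeks could not be fitted with the block. Leaving out each heart in turn gave 5 to 8 members lower in WTTAC vs. WTSH, 6 to 9 in KOTAC vs. KOSH, 5 to 11 weekly results lower and 0 to 1 higher in wild type, and 11 to 14 lower in KO. Without single hearts, weekly calls were lost for Rxra in KO at week 1 (7 hearts), Ppargc1a (5 hearts) and Tfam (6 hearts) in KO at week 2, and Ppara (2 hearts), Esrra (2 hearts) and Rxra (4 hearts) in wild type at week 2. Read depth is unknown, so the precision of low genes such as Ppargc1b rests on the spread between hearts alone.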

Other observations

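The 4 hearts highest in Ppargc1a, singled out after their values were seen, also held transcripts of glucocorticoid-responsive genes in the following amounts. Fkbp5, Tsc22d3 and Cdkn1a were not in any of the gene lists. Fkbp5, a chaperone partner of the glucocorticoid receptor, had 13.8 FPKM in heart 1 of WTTAC at week 2, 30.5 FPKM in heart 5 of KOTAC at week 4, 37.9 FPKM in heart 2 of KOTAC at week 8 and 46.8 FPKM in heart 2 of WTTAC at week 8. Tsc22d3 (GILZ) had 38.0, 109, 86.8 and 78.9 FPKM in the same order, and the cell cycle inhibitor Cdkn1a had 21.1, 34.4, 51.6 and 34.6 FPKM. Ucp3, a mitochondrial carrier and PPARα target, had 10.5, 8.36, 9.86 and 10.3 FPKM. In the other TAC hearts, Fkbp5 ran between 4.43 and 38.5 FPKM and Tsc22d3 between 28.2 and 83.6 FPKM. Cdkn1a ran there between 8.00 and 59.2 FPKM and Ucp3 between 0.83 and 21.3 FPKM. No test compared the 4 hearts with others.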
